A study of Mus musculus with 16 samples.

Results

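Complement genes of peritoneal tumor-associated macrophages (TAMs) were examined as 9 members, of 55604 genes listed per lane. The members were chosen by name, with earlier results of these data known. They were the C1q chains (*C1qa*, *C1qb* and *C1qc*), the central component *C3*, the alternative pathway components *Cfb* and *Cfp*, and the receptors *Vsig4*, *C3ar1* and *C5ar1*. RNA was sequenced from Tim-4+ and Tim-4- TAMs of C57BL/6 mice bearing ID8 tumors in the peritoneal cavity, to compare the paired subsets. ID8 is a mouse ovarian surface epithelial cancer line, and Tim-4 (encoded by *Timd4*) is a phosphatidylserine receptor of resident macrophages. After a density gradient had removed most tumor cells, Tim-4+ TAMs were taken with anti-Tim-4 beads, and Tim-4- TAMs were then taken from the remaining cells with anti-F4/80 beads. All 8 libraries share the strain, the tumor and the site, and no tumor-free macrophages were analysed here. The labels give neither age nor the number of mice behind a library. The paper's methods name female mice and an age range for the study as a whole. There were 4 libraries of each subset, numbered in the pairs 793, 784, 783 and 779.

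Complement is a cascade of plasma and locally made proteins. C1q bound to antibody or dying cells starts the classical route, and C4 and C2 then form the enzyme that cleaves C3, while factor B (*Cfb*), stabilized by properdin (*Cfp*), forms the C3-cleaving enzyme of the alternative route. C3 fragments mark surfaces for uptake through receptors such as CRIg (*Vsig4*) and CR3, and the small fragments C3a and C5a signal through *C3ar1* and *C5ar1*. Macrophages are a major source of C1q and properdin, and CRIg is known as a receptor of tissue-resident macrophages.

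The bases before the start of 4 member genes are shown from RefSeq (GRCm38.p6, all on the minus strand, written 5′ to 3′). *C1qb* and *C1qc* are shown because the C1q chains moved together, *Vsig4* because its difference was the largest among the members, and *C3* because its difference did not pass the test. Capitals mark GGAAGT or its reverse complement, the core recognized by ETS factors such as PU.1. The windows lie at chr4:136886201-136886450 (*C1qb*), chr4:136893066-136893164 (*C1qc*, shorter because the GENCODE start lies upstream of the RefSeq start), chrX:96293439-96293688 (*Vsig4*) and chr17:57228137-57228386 (*C3*).
C1qb: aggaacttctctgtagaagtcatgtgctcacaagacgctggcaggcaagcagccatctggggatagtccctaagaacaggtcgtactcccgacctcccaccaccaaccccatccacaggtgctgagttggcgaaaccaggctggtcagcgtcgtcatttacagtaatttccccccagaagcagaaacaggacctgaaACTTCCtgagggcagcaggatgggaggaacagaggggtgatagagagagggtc
C1qc: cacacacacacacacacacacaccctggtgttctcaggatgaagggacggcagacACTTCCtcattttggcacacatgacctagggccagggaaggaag
Vsig4: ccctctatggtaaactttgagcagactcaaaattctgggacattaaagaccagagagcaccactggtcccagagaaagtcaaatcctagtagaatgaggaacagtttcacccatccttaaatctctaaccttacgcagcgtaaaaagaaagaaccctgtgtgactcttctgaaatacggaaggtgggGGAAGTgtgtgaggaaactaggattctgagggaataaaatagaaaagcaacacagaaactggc
C3: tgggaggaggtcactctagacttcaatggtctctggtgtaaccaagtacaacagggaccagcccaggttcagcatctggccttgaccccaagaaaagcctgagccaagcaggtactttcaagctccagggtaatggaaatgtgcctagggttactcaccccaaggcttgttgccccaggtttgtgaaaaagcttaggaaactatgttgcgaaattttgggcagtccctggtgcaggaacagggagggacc
Of the 9 members, 7 had an entry in the promoter table (all but *C1qa* and *Cfb*). In the 250 bases before the start, read on both strands, GGAAGT was found in *C1qb*, *C1qc*, *Vsig4* and *C5ar1*, and in 19.7% of all 32851 windows of that length. TGCTGA, part of the element bound by Maf factors, was found in *C1qb*, *C3*, *C3ar1* and *C5ar1* and in 16.1% of all windows. AGATAA, which factors of the GATA family recognize, was found in *C3ar1* and in 9.99% of all windows. None of the 3 motifs was found in the window of *Cfp*. These matches are descriptions of the sequence and not binding sites.

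Transcript levels were expressed as CPM, the counts of a gene relative to the library total, scaled by TMM factors, which adjust each library for its composition. All 9 members were detected well enough to be tested. By edgeR's quasi-likelihood test with the pair as a block, 7 of the 9 were higher in Tim-4+ TAMs at a Benjamini-Hochberg adjusted p under 0.05, none was lower, and *C3* and *C3ar1* did not pass. Over all 16861 genes tested, 8.97% were called higher in Tim-4+ TAMs and 8.43% lower. The median log2 fold change (Tim-4+ over Tim-4-) was 0.84 among the members and -0.001 over all genes tested. In *Vsig4*, *C1qa*, *C1qb* and *C1qc* every Tim-4+ library was above every Tim-4- library, as in 6.84% of all genes tested. These p-values set a difference against the spread of the within-pair differences. That spread may be technical, since the labels do not say whether pairs are separate mice. In bulk RNA, fewer cells of a type and less RNA per cell cannot be told apart.

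*Timd4*, the gene of the sorting marker, had 1148 ± 498 CPM (SD, n = 4) where Tim-4 was selected for and 30.1 ± 37.5 CPM where it was not, and its libraries did not overlap. Total counts per library were 53527928 to 69594245. Of 8 macrophage markers, all were tested, 5 were higher in Tim-4+ TAMs and 1 (*Mrc1*) was lower, while *Csf1r* and *Fcgr1* did not pass. Their summed level was 43257 to 55691 CPM in Tim-4+ and 20867 to 33357 CPM in Tim-4- TAMs. *Lyz2* alone made up most of it (39771 ± 6334 against 21166 ± 4992 CPM). All 11 mesothelial and epithelial tumor markers (among them *Krt19*, *Msln* and *Upk3b*) were lower in Tim-4+ TAMs, with sums of 115.9 to 417 CPM against 470 to 2218 CPM. Fibroblast markers summed to 19.5 to 90.3 CPM in Tim-4+ and 49.9 to 172.6 CPM in Tim-4- TAMs, with *Dcn* lower. B cell markers were at most 17.9 CPM in sum, with *Cd79b* lower, and 6 of 7 T and NK cell markers, *Cd3e* among them, were under 1 CPM in every library, with *Cd4* lower. Granulocyte and mast cell markers summed to 278.7 to 378.2 CPM in Tim-4+ and 130.2 to 222.2 CPM in Tim-4- TAMs. Most of this sum was *Csf3r*, which was higher in Tim-4+ TAMs (316.4 ± 49.2 against 144.7 ± 43.4 CPM). *S100a8* averaged 2.10 and 1.60 CPM and did not pass, and *S100a9* was too low to be tested. *Kit* was lower, and *Ly6g* and *Siglecf* were under 1 CPM in every library. Dendritic cell markers summed to 13.3 to 29.4 against 10.3 to 17.4 CPM, with *Cd209a* higher and *Zbtb46* lower. The part of these cell types in the members' differences was not tested. No marker was at 0 in all libraries.

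**Figure D1:**
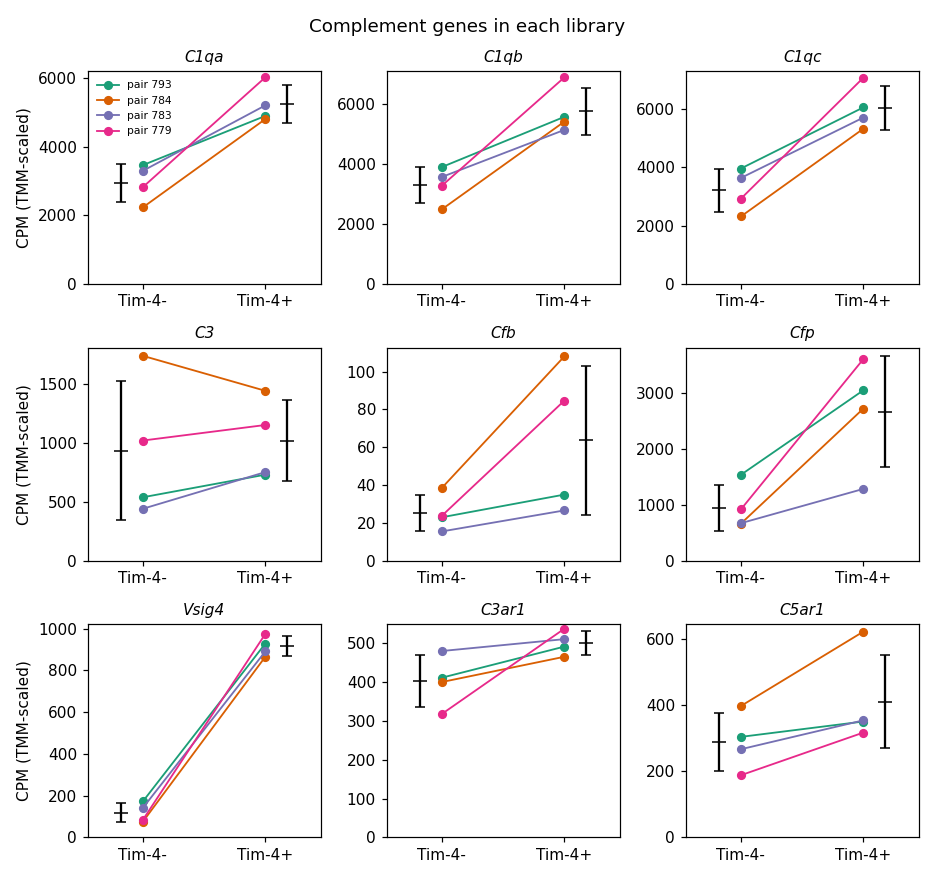
CPM (TMM-scaled, linear axes from 0) of the 9 members in Tim-4- and Tim-4+ TAMs. Colored points joined by a line are the 2 libraries of a pair, and black bars are the mean and SD of 4 libraries. The Tim-4+ libraries lie above all Tim-4- libraries for *C1qa*, *C1qb*, *C1qc* and *Vsig4*, while the lines of *C3* run in both directions.

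C1q is built from the A, B and C chains, whose genes lie next to each other on chromosome 4. *C1qa* was 4898, 4807, 5207 and 6026 CPM in the Tim-4+ libraries of pairs 793, 784, 783 and 779, and 3462, 2229, 3296 and 2820 CPM in the Tim-4- libraries. *C1qb* was 5587, 5427, 5150 and 6908 CPM in Tim-4+ and 3906, 2491, 3574 and 3282 CPM in Tim-4- TAMs. *C1qc* was 6061, 5328, 5711 and 7081 CPM in Tim-4+ and 3959, 2311, 3635 and 2922 CPM in Tim-4- TAMs. The lowest Tim-4+ library was above the highest Tim-4- library for each chain, and the Tim-4- library of pair 784 was the lowest of all 8 for each. The fitted log2 fold changes were 0.84 (SE 0.19, edgeR adjusted p = 0.023) for *C1qa*, 0.81 (SE 0.19, adjusted p = 0.0285) for *C1qb* and 0.94 (SE 0.20, adjusted p = 0.0198) for *C1qc*, which are 1.79-, 1.75- and 1.91-fold. The calls of all 3 chains were lost without the block (adjusted p = 0.0647, 0.0715 and 0.0631) and when pair 784 or pair 779 was left out, and that of *C1qb* was also lost without pair 793 (adjusted p = 0.0516). Scaling by total counts gave the smallest log2 fold changes of all settings, 0.48, 0.45 and 0.58. All 3 still passed there (edgeR adjusted p = 0.0272, 0.0359 and 0.02).

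Together the C1q chains took 1.35% to 1.67% of all counts in Tim-4+ and 0.83% to 1.19% in Tim-4- TAMs. Per kilobase of annotated exon, *C1qa* made up 36.3% to 39.4% of the summed C1q level over the 8 libraries, *C1qb* 37.3% to 41.7% and *C1qc* 20.9% to 24.2%. The make-up by chain thus spanned at most 4.4 percentage points between libraries. The 2 pairs with the larger C1q differences, 784 and 779 (log2 ratio 1.07 to 1.28 over the chains, against 0.50 to 0.66 in pairs 793 and 783), were also those whose Tim-4- libraries held the most mesothelial and epithelial marker RNA, 1417 and 2218 CPM against 470 and 951.6 CPM. *Timd4*, the gene of the sorting marker, was lowest in the same 2 Tim-4- libraries, 11.1 and 1.96 CPM against 84.9 and 22.3 CPM in pairs 793 and 783. Its log2 ratio was 7.29 and 9.21 in pairs 784 and 779, against 3.77 and 4.56. The 8 macrophage markers were spread around the C1q log2 fold changes in the same fit. *Lyz2* (lysozyme), *Adgre1* (F4/80), *Cd68*, *Itgam* and *Mertk* were higher, with log2 fold changes of 0.93, 1.28, 1.34, 1.24 and 0.57, *Mrc1* (CD206) was lower at -1.09, and *Csf1r* (0.25) and *Fcgr1* (-0.17) did not pass. The part of either marker group, or of the completeness of the sort, in the C1q difference was not tested. Without pairs 784 and 779, an alternative added after seeing the data, the log2 fold changes were 0.58, 0.52 and 0.63 for *C1qa*, *C1qb* and *C1qc*, and none passed (adjusted p = 0.13, 0.157 and 0.107).

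*C3*, the component on which all routes converge, did not pass the test. It was 729.4, 1441, 751.1 and 1151 CPM in the Tim-4+ libraries of pairs 793, 784, 783 and 779, and 537.4, 1738, 439.8 and 1019 CPM in the Tim-4- libraries. The highest and the lowest value were both in Tim-4- TAMs, and both libraries of pairs 784 and 779 were above all 4 libraries of the other pairs. The subsets overlapped, with 3 of 4 pairs higher in Tim-4+ TAMs and pair 784 lower. The log2 fold change was 0.28 (SE 0.19, 95% interval -0.16 to 0.72, edgeR adjusted p = 0.344), while the pair means ranged over 1.46 on the log2 scale. Scaling by total counts instead of TMM turned its direction, with a log2 fold change of -0.08.

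Properdin, the stabilizer of the alternative pathway enzyme, had the second-largest difference among the members in every pair. *Cfp* was 3046, 2719, 1282 and 3604 CPM in the Tim-4+ libraries of pairs 793, 784, 783 and 779, and 1534, 659.9, 668.3 and 914.8 CPM in the Tim-4- libraries. Tim-4+ was higher in all 4 pairs, but the Tim-4+ library of pair 783 fell below the Tim-4- library of pair 793, so the subsets overlapped. The log2 fold change was 1.49 (SE 0.24, adjusted p = 0.0106), which is 2.80-fold. It did not pass without pair 784 (1.30, adjusted p = 0.0707) or without the block (adjusted p = 0.0679). Without both pairs 784 and 779 it still passed, at 0.97.

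Factor B had the fewest counts of the members. *Cfb* was 34.9, 108.1, 26.6 and 84.7 CPM in the Tim-4+ libraries of pairs 793, 784, 783 and 779, and 22.9, 38.5, 15.4 and 23.7 CPM in the Tim-4- libraries. Tim-4+ was higher in all 4 pairs, and pairs 784 and 779 stood above the others in Tim-4+ TAMs, as they did for *C3*. The log2 fold change was 1.18 (SE 0.22, adjusted p = 0.0165), which is 2.27-fold. The call was lost without pair 784 (adjusted p = 0.0935), without pairs 784 and 779 (adjusted p = 0.0708) and without the block (adjusted p = 0.132). Only 579 of its 2825 exonic bases are free of a read-through gene model on the same strand, so its counts are an underestimate wherever shared reads were set aside.

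*Vsig4*, the gene of the C3b and iC3b receptor CRIg, had the largest difference of the members in all 4 pairs. It was 928.5, 865.5, 891 and 974.7 CPM in the Tim-4+ libraries of pairs 793, 784, 783 and 779, and 172.4, 75.4, 141.3 and 84.0 CPM in the Tim-4- libraries. The lowest Tim-4+ library (865.5 CPM) was far above the highest Tim-4- library (172.4 CPM), with means of 914.9 ± 47.5 and 118.3 ± 46.4 CPM (SD, n = 4 each). The log2 fold change was 3.04 (SE 0.23, edgeR adjusted p = 0.00256), which is 8.20-fold. By pair the log2 ratio was 2.43 and 2.66 in 793 and 783, and 3.52 and 3.54 in 784 and 779. *Vsig4* stayed past the threshold under all 14 alternative settings, with log2 fold changes of 2.54 to 3.25.

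The anaphylatoxin receptors differed less. *C5ar1*, the C5a receptor, was 350.8, 622.9, 354.4 and 317.3 CPM in the Tim-4+ libraries of pairs 793, 784, 783 and 779, and 304.3, 397.7, 266.9 and 188.2 CPM in the Tim-4- libraries. Both libraries of pair 784 were the highest of their subset, and Tim-4+ was higher in 4 of 4 pairs although the subsets overlapped. Its log2 fold change was 0.50 (SE 0.13, adjusted p = 0.0396), which is 1.42-fold. This call was lost when any single pair was left out (adjusted p = 0.0557 to 0.15), without the block (0.355) and with scaling by total counts (log2 fold change 0.15, adjusted p = 0.273).

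*C3ar1*, the C3a receptor, was 491.5, 465.3, 510.7 and 537.6 CPM in the Tim-4+ libraries of pairs 793, 784, 783 and 779, and 411.4, 400.2, 480.1 and 318 CPM in the Tim-4- libraries. All 4 pairs were higher in Tim-4+ TAMs, but the Tim-4- library of pair 783 lay above the Tim-4+ library of pair 784. The log2 fold change of 0.33 (SE 0.15, 95% interval -0.01 to 0.67) did not pass (edgeR adjusted p = 0.159), and scaling by total counts gave -0.03. *C5ar2*, the second C5a receptor, was near 10 CPM or below on average (9.41 ± 2.01 and 6.58 ± 2.40 CPM in Tim-4+ and Tim-4- TAMs) and did not pass either (adjusted p = 0.152).

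**Figure D2:**
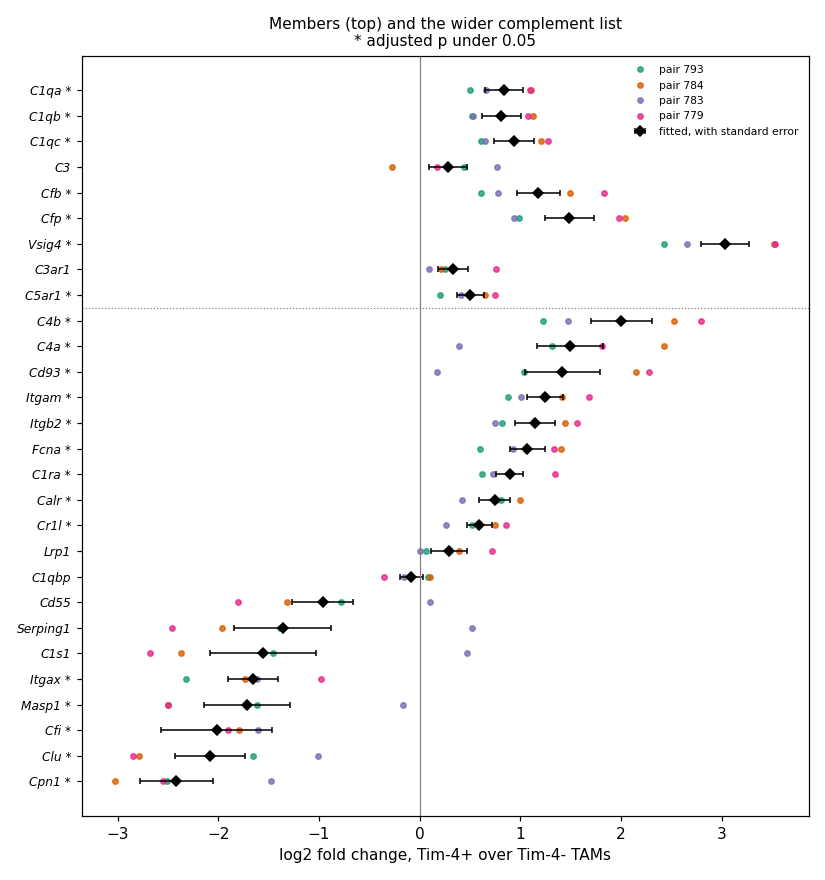
Log2 fold change (Tim-4+ over Tim-4- TAMs) of the 9 members, above the dotted line, and of the genes of the wider complement list that were called or averaged 10 CPM or more, apart from 1 gene not reported here. Black diamonds with bars are the fitted value and its standard error, colored points are the 4 pairs, and asterisks mark an adjusted p under 0.05. *Vsig4* lies farthest to the right at 3.04, and *Cpn1* farthest to the left at -2.42.

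Levels of different genes were compared only as CPM per kilobase of annotated exon. In Tim-4+ TAMs the order was *C1qb* (5302 ± 718), *C1qa* (5033 ± 534), *C1qc* (3131 ± 390), *Cfp* (1534 ± 571), *Vsig4* (617 ± 32.0), *C3* (198 ± 66.5), *C5ar1* (160.1 ± 55.3), *C3ar1* (116.4 ± 7.10) and *Cfb* (109.8 ± 67.8). In Tim-4- TAMs *C1qb* (3045 ± 556), *C1qa* (2838 ± 532), *C1qc* (1661 ± 382) and *Cfp* (544 ± 237) kept the first places, *Vsig4* (79.7 ± 31.3) had a lower mean than *C3* (181.5 ± 115), *C5ar1* (112.6 ± 33.8) and *C3ar1* (93.5 ± 15.4), and *Cfb* was at 43.4 ± 16.7. Neighbors *C1qb* and *C1qa* differed by less than the larger of their SDs in both subsets, as did *C3* and *C5ar1*. So did *C5ar1*, *C3ar1* and *Cfb* one after another in Tim-4+ TAMs, and likewise *C5ar1*, *C3ar1* and *Vsig4* in Tim-4- TAMs. The order of such neighbors is not resolved. By this measure *C1qb* and *C1qa* stood at places 4 and 6 among all tested genes for Tim-4+ TAMs and at 5 and 6 for Tim-4- TAMs, whereas *Vsig4* stood at 82 and 470. The value of *Cfb* uses only its 579 unshared bases.

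**Figure D3:**
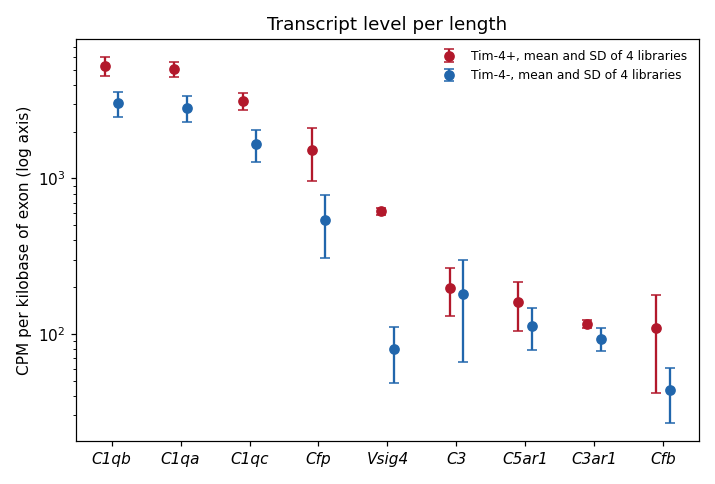
CPM per kilobase of exon on a log axis for the 9 members, ordered by their level in Tim-4+ TAMs. Points and bars are the mean and SD of 4 libraries, red for Tim-4+ and blue for Tim-4- TAMs. The C1q chains hold the first places in both subsets, and *Vsig4* shows the widest gap, 617 against 79.7.

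A wider list, also chosen with earlier results of these data known, was read from the same fit. It held 55 complement genes, the members included. Of these, 38 were tested, 17 were higher in Tim-4+ TAMs, 5 were lower and 16 did not pass, with a median log2 fold change of 0.51. Among the 29 tested genes that are not members, 10 were higher and 5 lower, with a median of 0.23. Over all 16861 genes tested, 8.97% were higher and 8.43% lower, with a median of -0.001. Of the 22 calls on the list, 1 (*Vsig4*) was made without pair 784, and 3 (*Vsig4*, *C4b* and *Itgam*) without the block. Over all genes, 2933 were called in the main fit, 158 without pair 784 and 232 without the block.

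*C4b*, the gene of C4, was 5225, 5725, 4657 and 8255 CPM in the Tim-4+ libraries of pairs 793, 784, 783 and 779, and 2237, 994.1, 1675 and 1190 CPM in the Tim-4- libraries. The libraries did not overlap, and the log2 fold change was 2.0 (SE 0.30, edgeR adjusted p = 0.00949). Its near-identical copy *C4a* was at 13.9 ± 6.13 and 4.73 ± 1.11 CPM and also called higher (1.49, adjusted p = 0.0258), and reads of the 2 cannot be assigned with certainty. *C1ra*, the C1r protease, was higher as well (81.5 ± 26.7 against 42.4 ± 5.05 CPM, log2 fold change 0.89, adjusted p = 0.00875). So was *Fcna*, a ficolin that starts the lectin route (1103 ± 381 against 547.9 ± 254 CPM, log2 fold change 1.07, adjusted p = 0.0104). *C2* was at 4.81 ± 2.22 and 7.56 ± 3.87 CPM and did not pass (adjusted p = 0.225).

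Genes of the receptor CR3 were higher in Tim-4+ TAMs as well. *Itgam* (CD11b) was 1910 ± 258 CPM in Tim-4+ and 810.9 ± 154 CPM in Tim-4- TAMs, with no overlap and a log2 fold change of 1.24 (SE 0.18, edgeR adjusted p = 0.00855). Its partner chain *Itgb2* (CD18) was 3614 ± 983 and 1644 ± 458 CPM, with a log2 fold change of 1.14 (SE 0.20, adjusted p = 0.0123). *Itgax*, the CD11c chain that pairs with CD18 in CR4, was lower, at 2.80 ± 1.56 against 8.57 ± 4.77 CPM (log2 fold change -1.65, adjusted p = 0.00875). *Cr2*, a receptor of B cells, was too low to be tested.

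Genes of C1q-binding surface proteins were mixed. *Calr* (calreticulin) was higher in Tim-4+ TAMs at 1507 ± 255 against 894.1 ± 125 CPM, with a log2 fold change of 0.75 (edgeR adjusted p = 0.0185). *Cd93* was higher at 387.3 ± 208 against 155.5 ± 84.5 CPM, with a log2 fold change of 1.42 (adjusted p = 0.0467). *Lrp1*, an endocytic receptor, had a log2 fold change of 0.29 (adjusted p = 0.29), which turned to -0.06 with scaling by total counts. *C1qbp*, a largely mitochondrial protein despite its name, was at -0.08 (adjusted p = 0.677).

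Regulators went in both directions. *Cr1l* (Crry, a membrane regulator of mouse cells) was higher in Tim-4+ TAMs, 92.5 ± 10.4 against 61.1 ± 5.54 CPM. Its log2 fold change was 0.59 (edgeR adjusted p = 0.0192), and it did not pass with scaling by total counts (0.24, adjusted p = 0.108). The call was also lost without the block (adjusted p = 0.0586) and without pair 793, 784 or 779 (adjusted p = 0.0602, 0.0987 and 0.0711). *Clu* (clusterin, which blocks the terminal complex) was lower, at 93.1, 204.2, 434.3 and 294.5 CPM in the Tim-4+ libraries of pairs 793, 784, 783 and 779 and 293.9, 1411, 876 and 2115 CPM in the Tim-4- libraries. Every pair fell, although the subsets overlapped, and the log2 fold change was -2.08 (SE 0.35, adjusted p = 0.0139). *Masp1*, a lectin route protease, was lower too (4.19 ± 2.26 against 14.4 ± 9.06 CPM, log2 fold change -1.72, adjusted p = 0.0401), as were the low genes *Cpn1* (carboxypeptidase N, which inactivates C3a and C5a, -2.42, adjusted p = 0.00875) and *Cfi* (factor I, -2.02, adjusted p = 0.0426). *Cfi* rested on 0, 2, 58 and 3 counts in Tim-4+ against 6, 12, 255 and 17 in Tim-4- TAMs.

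*C1s1* (C1s protease), *Serping1* (C1 inhibitor) and *Cd55* (decay-accelerating factor) did not pass. Their log2 fold changes were -1.56 (edgeR adjusted p = 0.092), -1.36 (adjusted p = 0.102) and -0.96 (adjusted p = 0.073). In each, pairs 793, 784 and 779 were lower in Tim-4+ TAMs and pair 783 was higher. Without pair 783 all 3 passed, with log2 fold changes of -2.18, -1.94 and -1.31, as they did with scaling by total counts (adjusted p = 0.0474, 0.0498 and 0.0321), and *Cd55* passed with DESeq2 (adjusted p = 0.00634). The highest values of *Clu*, *Masp1*, *C1s1*, *Serping1* and *Cd55* were in the Tim-4- libraries of pairs 784 and 779, which also had the highest sums of mesothelial and epithelial markers. The sum of the fibroblast markers was also highest in these 2 libraries (162.4 and 172.6 CPM), mostly through *Dcn* (115.1 and 151.8 CPM). *Pdgfra* was higher there as well, at 42.3 and 18.8 CPM against 8.57 and 10.2 CPM in the Tim-4- libraries of pairs 793 and 783. The collagen genes of that list, *Col1a1*, *Col1a2* and *Col3a1*, all at low levels, were instead lower there than in the Tim-4- libraries of those pairs. *Col3a1* was 4.15 and 1.32 CPM against 7.12 and 8.37 CPM. In pair 783 alone the fibroblast sum was higher in Tim-4+ than in Tim-4- TAMs (90.3 against 80.2 CPM). The part of either group of cells in these values was not tested.

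**Figure D4:**
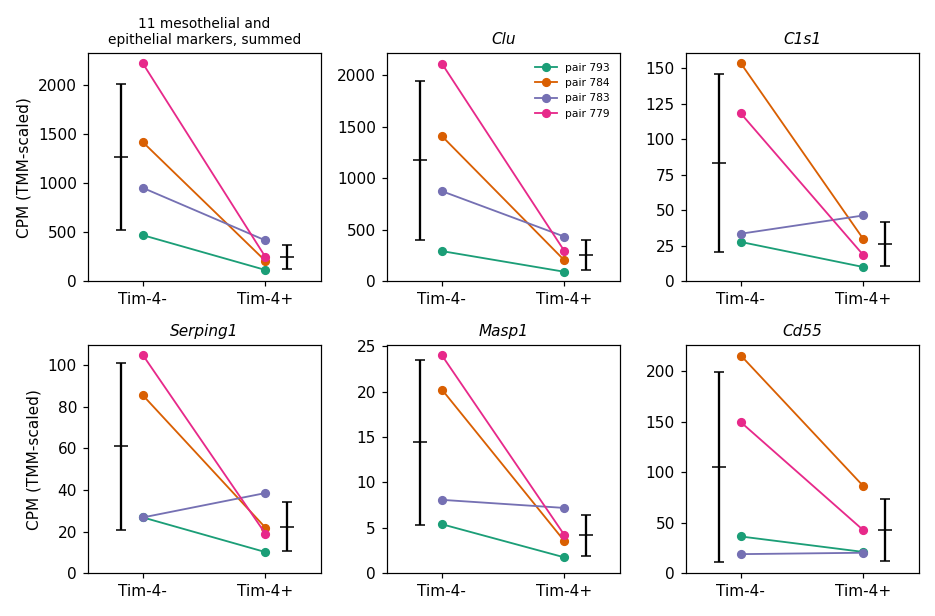
CPM (TMM-scaled, linear axes from 0) of the summed 11 mesothelial and epithelial markers and of *Clu*, *C1s1*, *Serping1*, *Masp1* and *Cd55* in each library. Colored points joined by a line are a pair, and black bars are the mean and SD of 4 libraries. The Tim-4- libraries of pairs 784 and 779 are the highest in every panel, with marker sums of 1417 and 2218 CPM.

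Several parts of the cascade were at or near the limit of detection. *Hc* (C5), the protein from which C5a is cut, had at most 7 counts in any library, and *Cfd* (factor D) at most 4, so neither was tested although *C5ar1* and *Cfb* were expressed. *Mbl1*, *Mbl2*, *Colec10*, *C7*, *C8a*, *C8b*, *C4bp*, *Vtn* and *Cpn2* had 0 counts in every library, where the limit that 0 counts allow was 0.0382 to 0.063 CPM (3 counts per library, counting error only). Of 6 terminal component genes, only *C6* and *C8g* were tested, at means of 1.05 and 2.74 CPM in Tim-4+ TAMs, and neither passed (adjusted p = 0.944 and 0.91).

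For each member, the genes with the most similar profile over the 8 libraries were found among 8768 genes averaging 10 CPM or more, by the root mean square difference of log2 CPM centered on each gene's mean. *C1qa* was the gene nearest to *C1qb* (0.069) and to *C1qc* (0.081), while *C1qb* and *C1qc* were 0.099 apart. *Cenpx* and *Tyrobp* (the adaptor DAP12), both 0.091 from *C1qb*, were nearer to it than *C1qc* was, and *Tlr13* was 0.099 from *C1qc*. The genes nearest to *Vsig4* were *Colec12* (0.27), *Epas1* (0.41) and *Lbp* (0.42). *Cfb* was nearest to *Rsad2* (0.32), *Lgals3bp* (0.33) and *Hp* (0.34), and *Cfp* to *Atp2a3* (0.16). *C3* was nearest to *Gm26809* (0.18), *C3ar1* to *Sh3glb1* (0.079) and *C5ar1* to *Znfx1* (0.078). These distances describe 8 libraries in 4 pairs and carry no test.

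**Figure D5:**
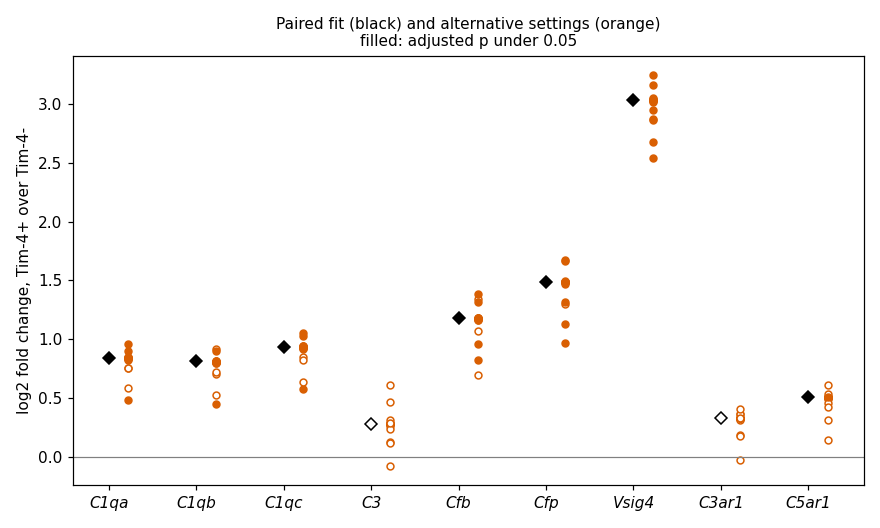
Log2 fold change (Tim-4+ over Tim-4- TAMs) of each member in the paired comparison (black diamonds) and under 14 alternative settings (orange circles), filled where the adjusted p was under 0.05. All symbols of *Vsig4* are filled, from 2.54 to 3.25, and those of *C3* and *C3ar1* are open, with 1 value each below 0.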

How the data were processed

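RNA was ribosome-depleted, prepared with a stranded kit and sequenced paired end, per the study's methods. The submitters' processing notes name FastQC 0.11.3, TopHat2 2.0.13, Cufflinks, Cuffdiff 2.2.1 and GRCm38/mm10, although the methods text names a human build. The read counter and its use of strand are not given in the sources used here, so overlapping and antisense genes are uncertain. The authors deposited raw counts per gene and lane, 55604 genes each. One lane (Tim-4- of pair 793) listed symbols in place of identifiers and was joined by order, with 96.9% of symbols matching. Identifiers were matched to GENCODE M21 (98.6% found), which gave coordinates and exon lengths. The 2 lanes of a library were summed.

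Genes with at least 10 counts in 4 libraries were tested with edgeR 4.0.16 (R 4.3.3; robust quasi-likelihood test, TMM, pair as a block, Benjamini-Hochberg over 16861 genes). The standard error is the log2 fold change divided by the square root of F, and the 95% interval follows from it. The fit was tested on simulated data. DESeq2 1.42.0, other scalings and filters, the fit without the block and leaving out pairs were alternatives. The pair numbers come from the labels, and deviations from the subset means correlated within every pair (r = 0.471, 0.498, 0.408 and 0.277 for pairs 793, 784, 783 and 779), so the block was kept. Pair numbers here are those of the labels; the study's supplementary table appears to list the pairs in another order, which leaves the pairing itself as it is. Total counts were 53527928 to 57768202 in Tim-4+ and 55618306 to 69594245 in Tim-4- libraries.

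Members and lists were chosen with earlier results of these data known. Named genes are the members, the genes of the complement list that were called or had a mean of at least 10 CPM, the 3 genes nearest each member by profile, of which some are given, and *Timd4*; 1 gene of the list is counted but not reported by name, and low or untested list genes (*C2*, *C5ar2*, *C6*, *C8g*, *Hc* and others) were named after their values were seen.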

Additional observations from a re-analysis of the deposited data

Results flagged for a closer look

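Among 58 groups of 4 libraries (29 complement genes in 2 subsets), 4 held a library whose gap to the nearest other, divided by the range of the group, was above Dixon's critical value (95% level). Chance alone picks out about 1 in 20 groups, which is 2.9 of 58. *C5ar1* reached 622.9 CPM in Tim-4+ TAMs of pair 784, above the other Tim-4+ libraries. In pair 783, *Cfi* was 1.06 CPM in Tim-4+ and 3.25 CPM in Tim-4- TAMs, above the others of each subset. *Lrp1* reached 3422 CPM in Tim-4+ TAMs of pair 783, the highest of its subset. The Tim-4- library of that pair, at 3414 CPM, was also the highest of its subset but was not flagged.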

How the results depend on the processing

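Of the alternatives tried, DESeq2's size factors, no count filter, a minimum of 50 counts, lane 2 only, and joining the symbol-listed lane by symbol or leaving it out kept the counts of called genes within 1.5 times of 2933 genes, 7 members and 22 of the complement list. Without the replicate block, 232 genes, 1 member (*Vsig4*) and 3 list genes were called. Scaling by total counts called 5692 genes (13.9% higher in Tim-4+ TAMs against 51.6% with TMM) and moved the median of all genes to -0.359. It turned *C3* to -0.078, *C3ar1* to -0.028 and *Lrp1* to -0.063. DESeq2's test with the pair as a block called 4527 genes. Leaving out 1 pair gave 158 to 3583 genes, 1 to 6 members and 1 to 25 list genes. The fewest were called without pair 784, where 1 member remained, against 3 without pair 779, and 819 genes were called without pair 779 and 1325 without pair 793. With 1 pair left out, the log2 fold change of *C1qbp* ranged from -0.143 (without pair 784) to 0.008 (without pair 779), and with total counts it was -0.439 and passed (adjusted p = 0.0448). Without both pairs 784 and 779, added after seeing the data, 384 genes, 2 members and 7 list genes were called. For single genes, 308 alternative values kept direction and side of the threshold, 82 lost the call, 8 gained one and 4 reversed. *Masp1*, *Clu* and *Cd93* also lost the call with no count filter. *C4a*, *Calr*, *Cd93*, *Cfi*, *Cr1l* and *Masp1* each lost it whenever pair 793, 784 or 779 was left out. The cause of these changes was not tested. Near-identical gene copies and read-through models limit *C4a*, *C4b*, *Cfb*, *C2* and *Itgam*.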
